A study of Mus musculus with 28 samples.

Results

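The genes described here are 10 genes chosen by symbol: Tnfaip2, Tnfaip3, Tnip1, Tnip2, Tnip3, Traf1, Traf2, Traf6, Birc2 and Birc3. The choice was made with earlier results of these data known. All but Tnfaip2 belong to the ubiquitin circuit that carries and restrains signals from toll-like receptors and TNF receptors. All 10 are among the 40021 genes of the deposited table, and all 10 are among the 13164 genes tested, for which 5 or more of the 28 retinas had to reach an RPKM of 1. RPKM scales the reads of a gene by its length and by the depth of the library. Tnip3 and Traf1 passed that filter only through the 4 h retinas, since 4 and 2 of the 22 other retinas reached an RPKM of 1, so a higher level at 4 h was built into their being tested.

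Lipopolysaccharide (LPS), shed from the outer membrane of Gram-negative bacteria, binds toll-like receptor 4 and recruits the ubiquitin ligase TRAF6, which activates the kinases that release NF-kappa B into the nucleus. TNF receptors use TRAF2, TRAF1 and the ubiquitin ligases cIAP1 and cIAP2, encoded by Birc2 and Birc3, for the same purpose. NF-kappa B in turn switches on genes of proteins that end the signal, above all A20, a ubiquitin-editing enzyme encoded by Tnfaip3, and the A20-binding proteins ABIN-1, ABIN-2 and ABIN-3, encoded by Tnip1, Tnip2 and Tnip3. Tnfaip2, a TNF-induced gene of the same naming series, encodes a membrane-associated protein linked to tunnelling nanotubes and is no part of the ubiquitin machinery. In microglia, loss of A20 is known to leave the cells in an activated state.

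Microglia were sorted as live, strongly tdTomato-positive cells from single retinas of male mice heterozygous for Cx3cr1CreER:R26-tdTomato on a C57BL/6 background, in which a tamoxifen-dependent Cre driven by the fractalkine receptor gene Cx3cr1 switches on a red fluorescent protein. Cx3cr1 is also active in monocytes and other macrophages, and the study chose its tamoxifen course by flow cytometry of the tagged cells. Topical tamoxifen was given for 3 days at 4 to 5 weeks of age, 4 weeks before the injection, to all groups. Endotoxin-induced uveitis (EIU) was induced by 10 ng LPS in 2 µL into the vitreous, and the 28 retinas comprised 10 naïve retinas with no injection, 6 taken at 4 h, 5 at 18 h and 7 at 2 weeks. RNA from 600 cells per retina was amplified and sequenced. Experiment 1 gave 6 naïve, 3 4 h, 4 18 h and 4 2-week retinas, and experiment 2 gave 4, 3, 1 and 3. The labels do not tie left and right retinas to mice, so each retina counted as 1 replicate, and p-values measure the spread between retinas.

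The retinas had 7510000 to 19700000 alignments each. At the longest annotated transcript of each of the 10 genes, 1 read was worth 0.00823 to 0.0251 RPKM at the largest depth and 0.0216 to 0.0658 RPKM at the smallest, and several of the lowest values given here are of that size or smaller. In 24 retinas 8137 to 11825 genes reached an RPKM of 1, against 6552 to 7088 in naïve retinas 3 and 4, 18 h retina 4 and 2-week retina 1. All 10 microglial markers on a fixed list were detected in each group, with a summed RPKM of 6626 to 13340 in naïve, 2125 to 6688 in 4 h, 3962 to 6270 in 18 h and 7758 to 12910 in 2-week retinas. Rod photoreceptor markers were present in all retinas, with sums of 683 to 5516 RPKM. Neutrophil markers summed to at most 83.0 RPKM in naïve, 36.9 in 4 h, 28.8 in 18 h and 65.5 in 2-week retinas. Csf3r alone reached 83.0 RPKM in naïve, 36.8 in 4 h, 11.7 in 18 h and 65.5 in 2-week retinas. S100a8 and S100a9 reached 9.24 and 5.15 RPKM at 18 h, whereas S100a9 was listed at 0 in all other retinas. Monocyte markers summed to at most 29.1, 18.1, 50.03 and 28.4 RPKM in the same order of groups. Lymphocyte markers summed to at most 0.907 RPKM outside the 18 h group and to 10.7 to 86.5 RPKM within it. The microglial sums at 4 h and 18 h thus lay below nearly all naïve values, which was not tested, and their part in the results below was not tested either. In such sorted samples, fewer cells of a type and less RNA per cell cannot be told apart.

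The promoter windows of the 10 genes, from 250 bases before to 50 bases after the annotated start (RefSeq, GRCm38.p6), were searched for the kappa B consensus, the 10-letter motif that NF-kappa B dimers bind, on both strands. The motif reads alike on both strands. Of the reference windows, 12 belong to the 10 genes, with 2 windows each for Tnfaip3 and Birc2. Matches were found for 5 genes, Tnfaip2, Tnfaip3, Tnip1, Tnip2 and Tnip3, in 5 of these 12 windows, while 11.2% of all 32851 windows in the table held a match. A stricter form, which opens with GGG on either strand, was found for 4 of these genes, all but Tnip2, in 1 window each, and in 8.46% of all windows. The 5 windows with a match are printed below 5′ to 3′ on the strand of the gene, in lower case with the matches in capitals, because these genes include the 5 members of the A20, ABIN and TNFAIP2 group and their matches differ in number and place.
Tnfaip3, chr10:19015361-19015660, minus strand: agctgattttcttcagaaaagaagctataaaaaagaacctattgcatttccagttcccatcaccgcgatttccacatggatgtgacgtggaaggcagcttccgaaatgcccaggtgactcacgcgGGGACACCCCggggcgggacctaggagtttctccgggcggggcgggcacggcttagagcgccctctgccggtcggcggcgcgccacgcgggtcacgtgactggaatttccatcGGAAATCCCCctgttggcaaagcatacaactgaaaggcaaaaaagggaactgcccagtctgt
Tnip1, chr11:54962891-54963190, minus strand: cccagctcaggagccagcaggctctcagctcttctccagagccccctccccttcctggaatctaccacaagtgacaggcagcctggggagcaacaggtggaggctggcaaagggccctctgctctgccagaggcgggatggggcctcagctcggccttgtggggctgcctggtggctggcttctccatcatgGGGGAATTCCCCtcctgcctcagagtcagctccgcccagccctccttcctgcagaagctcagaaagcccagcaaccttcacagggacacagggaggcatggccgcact
Tnip2, chr5:34513930-34514229, minus strand: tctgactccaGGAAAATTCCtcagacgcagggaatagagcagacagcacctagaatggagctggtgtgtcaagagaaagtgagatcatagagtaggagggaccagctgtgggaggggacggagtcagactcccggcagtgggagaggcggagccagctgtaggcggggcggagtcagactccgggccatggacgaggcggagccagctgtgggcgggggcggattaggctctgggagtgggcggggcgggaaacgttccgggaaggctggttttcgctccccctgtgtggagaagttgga
Tnip3, chr6:65590148-65590447, plus strand: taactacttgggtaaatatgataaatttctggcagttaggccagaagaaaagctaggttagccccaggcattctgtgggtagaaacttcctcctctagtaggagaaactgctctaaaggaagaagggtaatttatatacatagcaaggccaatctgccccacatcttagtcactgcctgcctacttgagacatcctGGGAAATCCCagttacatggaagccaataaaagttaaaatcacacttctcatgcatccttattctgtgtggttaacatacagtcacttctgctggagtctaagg
Tnfaip2, chr12:111442411-111442710, plus strand: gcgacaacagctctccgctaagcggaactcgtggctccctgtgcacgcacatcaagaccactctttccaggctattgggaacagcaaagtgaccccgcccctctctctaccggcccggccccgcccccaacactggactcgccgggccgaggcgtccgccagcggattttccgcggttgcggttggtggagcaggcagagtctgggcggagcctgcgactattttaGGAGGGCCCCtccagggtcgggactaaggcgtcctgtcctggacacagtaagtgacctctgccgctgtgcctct
Tnfaip3 held 2 separate matches, whose first letters lay 125 and 12 bases before the start. In Tnip1 the 3 matches overlapped one another and began 58, 57 and 56 bases before the start. Tnip3 held 1 match at 54 bases and Tnfaip2 1 at 24 bases before the start, whereas the match of Tnip2 lay at 240 bases and was of the looser form. No match was found in the windows of Traf1, Traf2, Traf6, Birc2 and Birc3 or in the second window of Tnfaip3. A match is a run of letters and does not show a bound site.

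At 4 h after LPS, 7 of the 10 genes were higher than in naïve retinas, namely Tnfaip2, Tnfaip3, Tnip1, Tnip2, Tnip3, Traf1 and Birc3. The test asked for a change of 2-fold or more with an adjusted p no larger than 0.05. Over all genes tested, 8.08% passed this test in either direction and 3.68% passed it with a higher level at 4 h (485 higher and 578 lower genes). The other 3 genes, Traf2, Traf6 and Birc2, did not pass it. Tnip3 and Traf1 entered the test only through the 4 h retinas, so their calls were favoured by the filter. Among the 8 genes that passed the filter without those retinas, Tnfaip2, Tnfaip3, Tnip1, Tnip2 and Birc3 were higher. The same limit holds for Tnip3 and Traf1 in every comparison with the 4 h retinas below. The median log2 fold change was 3.16 over the 10 genes, Tnip3 and Traf1 among them, and -0.11 over all genes tested. In each of the 7 genes called, every 4 h retina lay above every naïve retina. The share of all genes tested with such a separation was not computed, and these 7 had already been picked by the test.

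**Figure D1:**
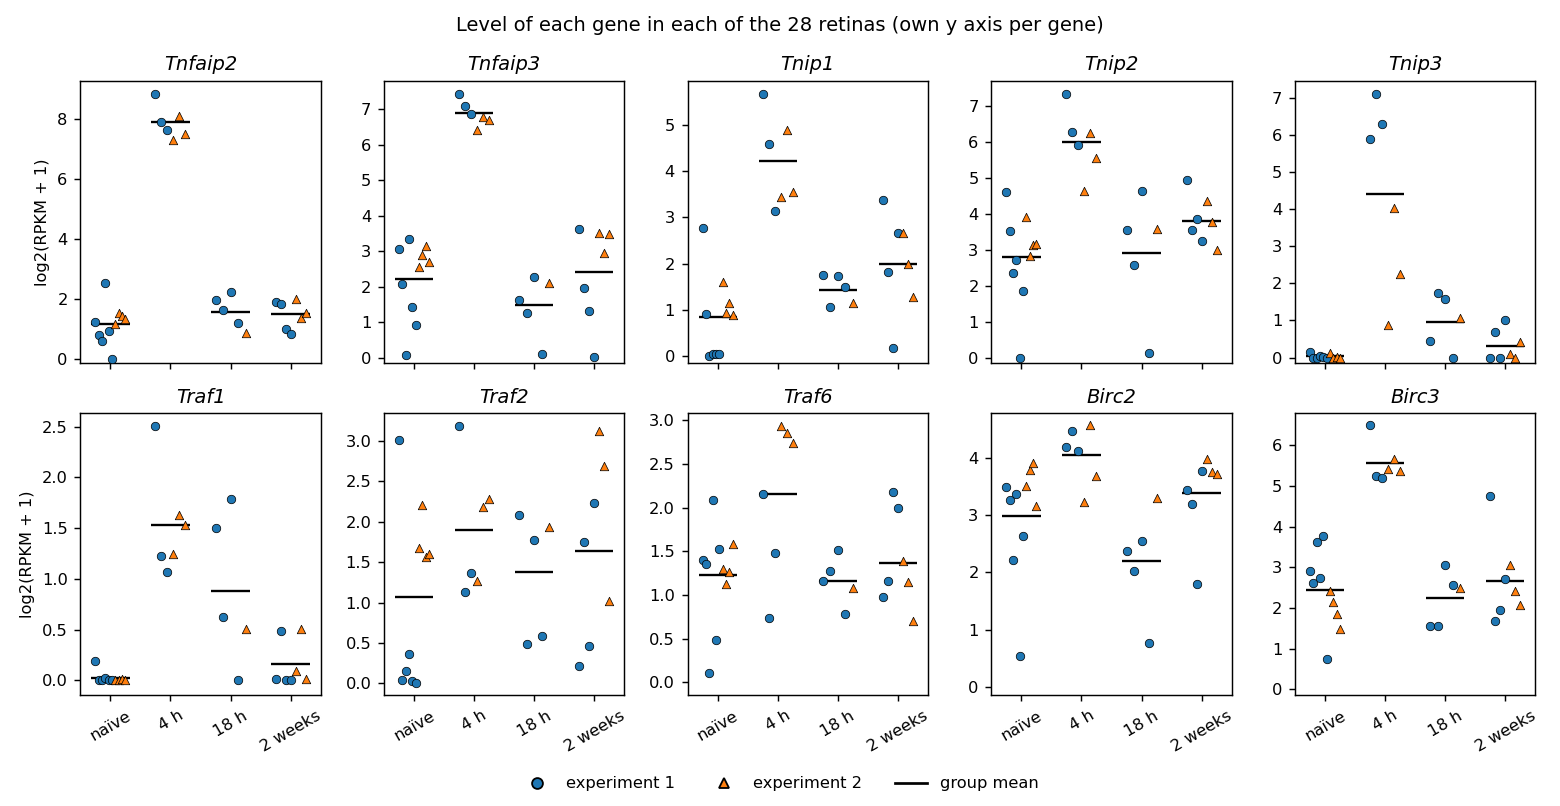
Level of each of the 10 genes, as log2(RPKM + 1) on the y axis with its own range per gene, in naïve, 4 h, 18 h and 2-week retinas; each point is 1 retina (circles, experiment 1; triangles, experiment 2) and bars are group means. The 4 h retinas stand above all 22 other retinas for Tnfaip2, Tnfaip3 and Birc3, a separation whose share over all genes was not computed. The 4 h values of Tnip3, Traf6 and Tnfaip3 do not overlap between the experiments.

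Tnfaip3, which encodes A20 (chr10:19000910-19015657, GRCm38), lay between 0.0487 and 9.17 RPKM in naïve retinas with a median of 5.19. At 4 h its lowest, median and highest values were 85.0, 113 and 171 RPKM. At 18 h the 5 retinas had 2.08, 1.38, 3.81, 0.0853 and 3.32 RPKM, and at 2 weeks the range was 0.0117 to 11.3 with a median of 6.74. No 4 h retina overlapped with any of the 22 others. All 18 h retinas lay within the naïve range, while at 2 weeks 3 of 7 lay above every naïve retina and 1 below. The increase at 4 h was 4.67 on the log2 scale (SE 0.51, adjusted p = 6.6e-08), or 25.4-fold on log2(RPKM + 1), which understates the change of weakly expressed genes. It ranked 45 of 13164 genes by the size of the increase.

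Tnfaip2 (chr12:111442469-111455018) had the largest change of the 10 genes at 4 h on log2(RPKM + 1), while on untransformed RPKM, where its log2 ratio of means was 7.44, that of Tnip3 was larger at 10.9. Naïve retinas had 0 to 4.798 RPKM with a median of 1.28, and 1 of them was listed at 0. The 4 h retinas had 158 to 455 RPKM with a median of 219.6. Values were 2.86, 2.08, 3.63, 1.27 and 0.817 RPKM at 18 h, and 0.761 to 2.99 with a median of 1.87 at 2 weeks. The lowest 4 h retina was thus far above the highest of the 22 others, 4.798 RPKM, which was a naïve retina. Its change at 4 h was 6.74 on the log2 scale (SE 0.34, adjusted p = 2.2e-15), rank 13 by increase and rank 2 by p among all genes tested. By level, Tnfaip2 moved from above 28.3% of the genes tested in naïve retinas to above 98.9% of them at 4 h. The antisense gene Gm40578 overlaps Tnfaip2, and its own level never exceeded 1.13 RPKM. The library kit does not mark strand.

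The A20-binding protein genes rose together with Tnfaip3 but from different starting levels. Tnip1 (chr11:54910785-54962917), which encodes ABIN-1, had 0 to 5.80 RPKM in naïve retinas with a median of 0.877, and 7.73, 16.8 and 49.5 RPKM as lowest, median and highest values at 4 h. The 18 h retinas had 2.35, 1.08, 2.34, 1.82 and 1.23 RPKM, all of them within the naïve range. At 2 weeks the retinas spread from 0.134 to 9.36 RPKM with a median of 2.98, and the highest of them lay above the lowest 4 h retina. At 4 h the log2 fold change was 3.37 (SE 0.46, adjusted p = 3.2e-06).

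Tnip2 (chr5:34496087-34513991), which encodes ABIN-2, a partner of A20 that also stabilises the kinase TPL2, was the most strongly expressed of the 3 ABIN genes in naïve retinas, with 0 to 23.6 RPKM and a median of 6.94. At 4 h it had 23.7 to 159.7 RPKM with a median of 66.6. Its 18 h values were 10.7, 5.02, 23.95, 0.0984 and 10.98 RPKM, and at 2 weeks it had 6.98 to 29.7 with a median of 12.6. The lowest 4 h retina was only just above the highest naïve one, and 1 retina each at 18 h and at 2 weeks lay above it. Tnip2 rose by 3.18 on the log2 scale (SE 0.57, adjusted p = 2.2e-04).

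Tnip3 (chr6:65525313-65634040), which encodes ABIN-3, was close to the limit of detection in naïve retinas. It was listed at 0 in 5 of them and had at most 0.106 RPKM in the rest, a few reads at these depths. At 4 h its 6 retinas ranged from 0.837 to 135.9 RPKM with a median of 36.7. At 18 h it had 0.357, 2.35, 1.97, 0 and 1.09 RPKM, with 4 of 5 retinas above every naïve retina, and at 2 weeks 0 to 1.03 RPKM with 3 of 7 retinas listed at 0. The log2 fold change was 4.37 at 4 h (SE 0.57, adjusted p = 1.5e-06) and 0.93 at 18 h (SE 0.60, adjusted p = 0.45), which did not pass the test. Its promoter window begins inside the gene as GENCODE draws it, because the GENCODE gene starts upstream of the RefSeq start.

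Of the 3 TRAF genes among the 10, Traf1 passed the test at 4 h and Traf2 and Traf6 did not. Traf1 (chr2:34941750-34961772) encodes a TRAF without a ubiquitin ligase domain that joins TRAF2 in complexes at TNF receptors. It was listed at 0 in 7 of 10 naïve retinas and reached 0.143 RPKM in the highest of them. All 6 retinas at 4 h had 1.09 to 4.68 RPKM with a median of 1.63, a low level that lay above 42.7% of the genes tested. Traf1 rose by 1.51 on the log2 scale (SE 0.23, adjusted p = 1.8e-05), and with a pseudocount of 10 RPKM it was 0.26, below the fold limit.

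Traf2 (chr2:25517982-25546940), the TRAF that brings the cIAPs to TNF receptors, had 0 to 7.10 RPKM in naïve retinas (median 1.12) and 1.19 to 8.08 RPKM at 4 h (median 2.56). Its log2 difference of 0.84 at 4 h (95% interval -0.17 to 1.84, adjusted p = 0.35) did not pass the test. Traf6 (chr2:101678429-101701669), the ligase of toll-like receptor and IL-1 receptor signalling, had 0.0745 to 3.25 RPKM in naïve retinas (median 1.504) and 0.671 to 6.67 RPKM at 4 h (median 4.58). Its difference of 0.93 (95% interval 0.24 to 1.62, adjusted p = 0.088) missed the threshold. It passed with 1.03 (adjusted p = 0.049) without naïve retina 4 and with 1.21 (adjusted p = 0.018) without 4 h retina 2, the lowest of the 4 h retinas. The processed pseudogene Gm13433 lies within Traf2 and reached 1.49 RPKM, so part of the reads of this weakly expressed gene could be divided between the 2.

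Of the adjacent paralogues Birc3 and Birc2, only Birc3 passed the test at 4 h. Birc3 (chr9:7848699-7873186), which encodes cIAP2, had 0.678 to 12.7 RPKM in naïve retinas (median 4.78) and 35.8 to 89.2 RPKM at 4 h (median 41.0), with no overlap with any other retina. Its values were 1.93, 1.92, 7.37, 4.96 and 4.60 RPKM at 18 h and 2.21 to 26.1 (median 4.34) at 2 weeks. Birc3 rose at 4 h by 3.13 on the log2 scale (SE 0.44, adjusted p = 5.6e-06). Birc2 (chr9:7818227-7837064), which encodes cIAP1 and lies 11634 bases from Birc3, had 0.450 to 14.1 RPKM in naïve retinas (median 9.04) and 8.37 to 22.9 RPKM at 4 h (median 16.9), where 4 of 6 retinas were above every naïve retina. The log2 difference was 1.06 (95% interval 0.16 to 1.95, adjusted p = 0.15) and did not pass the test. The difference between the changes of the 2 paralogues was not tested, and reads that both could give were divided by the authors' estimation.

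By level, the order of the 10 genes in naïve retinas ran from Birc2, Tnip2, Tnfaip3 and Birc3, with medians of 9.04, 6.94, 5.19 and 4.78 RPKM, down to Tnip3 and Traf1, with medians of 0.00434 and 0 RPKM. At 4 h Tnfaip2 and Tnfaip3 stood first, with medians of 219.6 and 113 RPKM, followed by Tnip2, Birc3 and Tnip3 with 66.6, 41.0 and 36.7 RPKM. Within naïve retinas the ranges of the first 4 genes overlapped widely. In 7 of the 10 genes the highest of the 6 4 h retinas was the same one, 4 h retina 1 of experiment 1. Without it the log2 fold change at 4 h was still called for all 7 genes named above.

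**Figure D2:**
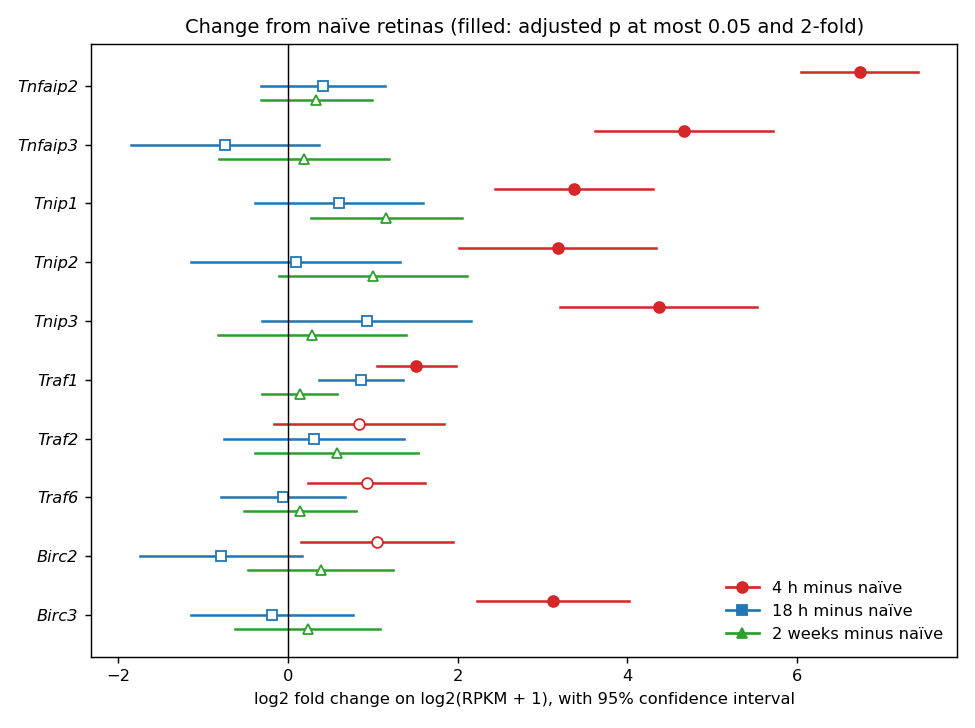
Log2 fold change of each gene from naïve retinas (x axis, on log2(RPKM + 1)) at the 3 times after LPS, with 95% confidence intervals from the limma fit; filled symbols passed the test. All 7 filled symbols belong to 4 h, and the intervals at 2 weeks include 0 for all genes but Tnip1.

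At 18 h none of the 10 genes passed the test against naïve retinas, where 4.69% of all genes tested did. At an unadjusted p under 0.05 there was 1 of the 10, Traf1, beside 2301 of all 13164 genes tested. Traf1 had 1.82, 0.543, 2.46, 0 and 0.422 RPKM in the 5 retinas. Its difference of 0.86 on the log2 scale (SE 0.24, adjusted p = 0.032) fell short of the 2-fold limit. Without 18 h retina 4, in which it is listed at 0, the difference was 1.08 (adjusted p = 0.0061) and was called. The 18 h retinas were also those with lymphocyte markers, led by Nkg7 with a median of 12.1 RPKM against 0 in the other groups, and S100a8, S100a9 and the monocyte markers also reached their highest values there. The part of these cell types in the Traf1 level was not tested. The differences of the other 9 genes ran from -0.79 for Birc2 to 0.93 for Tnip3. Over the 10 genes the median log2 difference was 0.20, against -0.08 over all genes tested.

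Compared with 4 h directly, 7 genes were lower at 18 h, namely Tnfaip2, Tnfaip3, Tnip1, Tnip2, Tnip3, Birc2 and Birc3, where 2.51% of all genes tested were lower. Tnfaip2 fell by 6.32 (SE 0.40, adjusted p = 2.5e-12) and Tnfaip3 by 5.41 (SE 0.60, adjusted p = 2.5e-07) on the log2 scale. Birc3 fell by 3.32, Tnip3 fell by 3.44, Tnip2 fell by 3.09 and Tnip1 fell by 2.77, with adjusted p-values between 5.8e-05 and 0.0035. Birc2 fell by 1.84 (SE 0.51, adjusted p = 0.027), from 8.37 to 22.9 RPKM at 4 h to 4.17, 3.09, 4.85, 0.692 and 8.87 RPKM at 18 h, and 1 of its 18 h retinas overlapped with the 4 h range. That call was lost without any 1 of 6 retinas (4 h retinas 1, 2 and 5 and 18 h retinas 1, 2 and 4), with adjusted p-values of 0.052 to 0.11. Traf1 changed by -0.65 between 4 h and 18 h (adjusted p = 0.19), so no difference between these time points was shown for it.

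At 2 weeks none of the 10 genes was called against naïve retinas, as was true of nearly all genes (0.0076% called, 1 gene). With no adjustment, Tnip1 had a p of 0.012 and a log2 difference of 1.16 (95% interval 0.27 to 2.05, adjusted p = 1), and 1 of 7 retinas lay above every naïve retina. Of all 13164 genes tested, 378 had an unadjusted p under 0.05 in this comparison. The intervals of the other 9 of the 10 genes included 0. They reached up to 2.11 for Tnip2, whose difference was 1.01, and the interval of Tnfaip3 ran from -0.81 to 1.20, so changes of the size of these limits could have been missed. Against the 4 h retinas, 7 genes were lower at 2 weeks, Tnfaip2, Tnfaip3, Tnip1, Tnip2, Tnip3, Traf1 and Birc3, where 2.91% of all genes were. Tnfaip2 fell by 6.41 (adjusted p = 8.2e-14), Tnfaip3 by 4.48 (adjusted p = 8.9e-07) and Traf1 by 1.38 (adjusted p = 2.9e-04). The call for Tnip2, which fell by 2.18 (adjusted p = 0.026), was lost without any 1 of 5 retinas (4 h retinas 1, 2 and 5 and 2-week retinas 4 and 7), with adjusted p-values of 0.051 to 0.086. Birc2 did not differ beyond its spread between 4 h and 2 weeks (-0.67, 95% interval -1.63 to 0.30, adjusted p = 0.52).

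Between 18 h and 2 weeks no gene of the 10 was called, where 2.65% of all genes were. At an unadjusted p under 0.05 were Traf1, lower at 2 weeks by -0.73 (adjusted p = 0.15), and Birc2, higher by 1.18 (adjusted p = 0.25). Of all 13164 genes tested, 1833 had an unadjusted p under 0.05 in this comparison. The order of the 4 groups by median had 4 h first for each of the 10 genes. Below it, no difference among the naïve, 18 h and 2-week levels was called. That of Traf1 between 18 h and naïve retinas missed only the 2-fold limit. For Traf2 and Traf6 no step from 4 h to another group passed the test. For Birc2 only the step from 4 h to 18 h passed it, and for Traf1 that step did not.

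The 4 h retinas came from both experiments, and the change at 4 h was examined within each. In experiment 1 the same 7 genes were higher at 4 h as over both experiments, where 3.94% of all genes were higher. In experiment 2 there were 6, all but Tnip2, where 1.25% of all genes were higher. Tnip2 had a log2 fold change of 4.00 in experiment 1 and of 2.22 in experiment 2 (adjusted p = 0.29). With only 3 4 h retinas each, the 6 calls in experiment 2 became 3 (Tnfaip2, Tnfaip3 and Birc3) without 4 h retina 5. The calls of Tnip1 and Traf1 there were also lost without any 1 of naïve retinas 8, 9 and 10 or without 4 h retina 6, the call of Tnip1 without 4 h retina 4 and that of Traf1 without naïve retina 7.

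**Figure D3:**
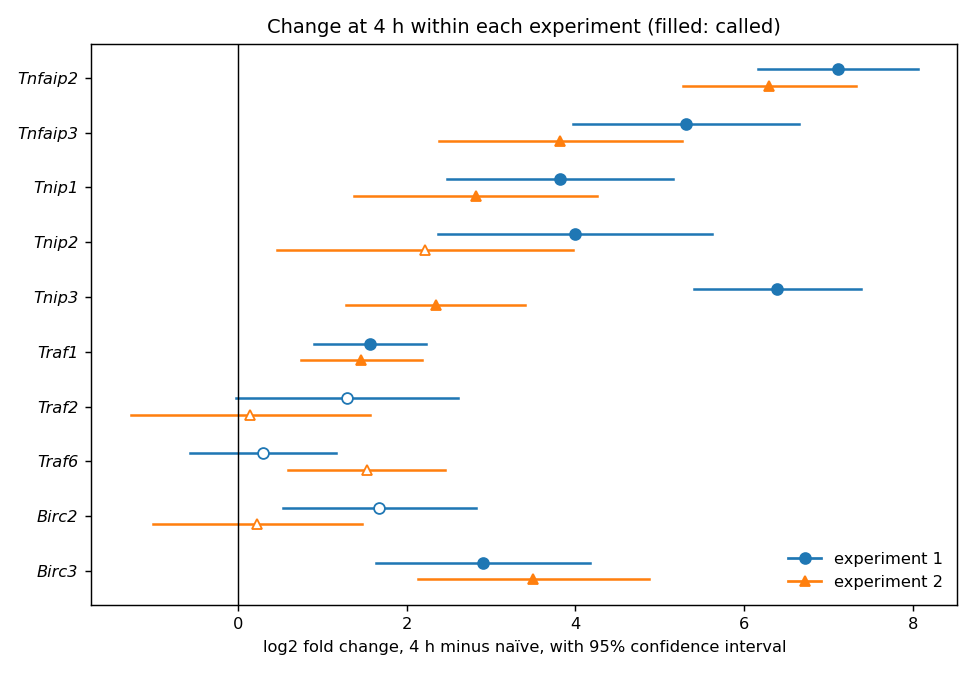
Log2 fold change at 4 h from naïve retinas (x axis) within experiment 1 (circles, 3 4 h and 6 naïve retinas) and experiment 2 (triangles, 3 and 4), with 95% confidence intervals; filled symbols passed the test. The intervals of Tnip3, 5.41 to 7.38 and 1.28 to 3.41, do not overlap.

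Tnip3 was the only gene of the 10 whose change at 4 h was called as different between the experiments. Its 4 h retinas had 58.2, 135.9 and 78.1 RPKM in experiment 1 and 0.837, 15.2 and 3.74 RPKM in experiment 2, so that the 2 experiments did not overlap. The log2 fold change was 6.40 (95% interval 5.41 to 7.38) in experiment 1 and 2.34 (95% interval 1.28 to 3.41) in experiment 2. The difference between these changes was -4.05 (95% interval -5.50 to -2.60, adjusted p = 0.012), 1 of 13 genes called in this test, or 0.0988% of all genes. Its level at 4 h also differed by -4.05 (adjusted p = 2.7e-04), where 0.258% of all genes did, while the naïve levels of the 2 experiments were both near 0. With a pseudocount of 0.1 RPKM this call on the level of Tnip3 was lost (-4.49, adjusted p = 0.168), as it was with the replicate number as a block (-4.24, adjusted p = 0.084). Both settings also ended the call on the change. The call on the change was further lost without 4 h retina 2, 4 or 6 (adjusted p-values of 0.064, 0.065 and 0.074), with differences of -3.72, -3.30 and -3.98. Rod photoreceptor markers also separated the 4 h retinas by experiment, with sums of 959 to 3340 RPKM in experiment 1 and 3870 to 5192 RPKM in experiment 2, and their part in the Tnip3 difference was not tested. Microglial marker sums overlapped between these retinas, 2125 to 5787 and 3462 to 6688 RPKM.

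For the other 9 genes the difference between the changes was not called. Tnfaip3 had 116 to 171 RPKM at 4 h in experiment 1 and 85.0 to 110 RPKM in experiment 2, which did not overlap either. The share of all genes whose 4 h values stood apart by experiment was not computed. Traf6 leaned the other way at 4 h, with 3.45, 0.671 and 1.80 RPKM in experiment 1. In experiment 2 it had 6.67, 6.22 and 5.71 RPKM, again with no overlap. Its level at 4 h was higher in experiment 2 by 1.39 on the log2 scale (95% interval 0.39 to 2.38), with an unadjusted p of 0.0081 and an adjusted p of 0.42. Within experiment 2 its change at 4 h was 1.53 (adjusted p = 0.098), and within experiment 1 it was 0.30. The same rod marker values stand beside this difference, and their part in it was not tested. Birc2 had changes of 1.68 in experiment 1 (adjusted p = 0.069) and 0.23 in experiment 2. The first of these was called without naïve retina 1 or 4 (adjusted p-values of 0.033 and 0.048). The changes of Tnfaip2, at 7.11 and 6.30, and of Traf1, at 1.56 and 1.47, had overlapping intervals. The intervals of the differences were wide, from -3.45 to 0.48 for Tnfaip3 and from -1.27 to 2.46 for Birc3, so unequal changes of several fold could not have been detected.

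The genes most like 3 of these in pattern were sought over the 28 retinas by Pearson correlation of log2(RPKM + 1), for Tnfaip3 and for the 2 other genes with the largest increase, Tnfaip2 and Tnip3. The 28 points fall into the 4 h retinas and the rest, so these correlations describe mainly that step. Tnfaip2 was most like Gm10425 (0.9751), Gm45266 (0.972) and Gm32296 (0.969), and Tnfaip3 was most like Gm26603 (0.899), Gm45266 (0.896) and Gm32296 (0.893). All of these are weakly expressed genes that GENCODE annotates as long noncoding, antisense or still to be experimentally checked, whose means at 4 h were 2.40 to 8.31 RPKM and whose values outside 4 h never exceeded 0.729 RPKM. They thus passed the filter only through the 4 h retinas. Gm10425 is an antisense gene at chr12:111426874-111430946, whose end lies 11522 bases before the start of Tnfaip2, so these 2 are neighbours on chromosome 12. Tnip3 was most like Socs2 (0.954), a cytokine signalling suppressor, Mcoln2 (0.950), an endolysosomal channel, and Cd40 (0.944), a TNF receptor family member. Since they were chosen for likeness to Tnip3 over these same retinas, a split by experiment like its own was favoured by the choice, and their values are a description. They had 5.41 to 16.8, 7.22 to 8.38 and 67.9 to 84.7 RPKM at 4 h in experiment 1 and 0.876 to 4.18, 0 to 4.15 and 6.196 to 15.9 RPKM in experiment 2. Socs2 never exceeded 0.641 RPKM outside 4 h, so it too passed the filter only through the 4 h retinas.

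Other genes of the same pathways, 97 in 7 lists, were set beside the 10. Of these, 86 were tested, and 23 were higher and 7 lower at 4 h, 34.9% against the 8.08% of all genes given above. At 18 h 5 were higher and 2 lower, 8.14% against 4.69%, and none was called at 2 weeks. The lists were chosen with earlier results of these data known. Shares above that of all genes were thus favoured by the choice, here and in each list below. The median log2 difference of the 86 genes at 4 h was 0.21. Genes of the lists that passed the filter only through the 4 h retinas, Ikbke and Tnfrsf9 among them, were favoured by it at 4 h.

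**Figure D4:**
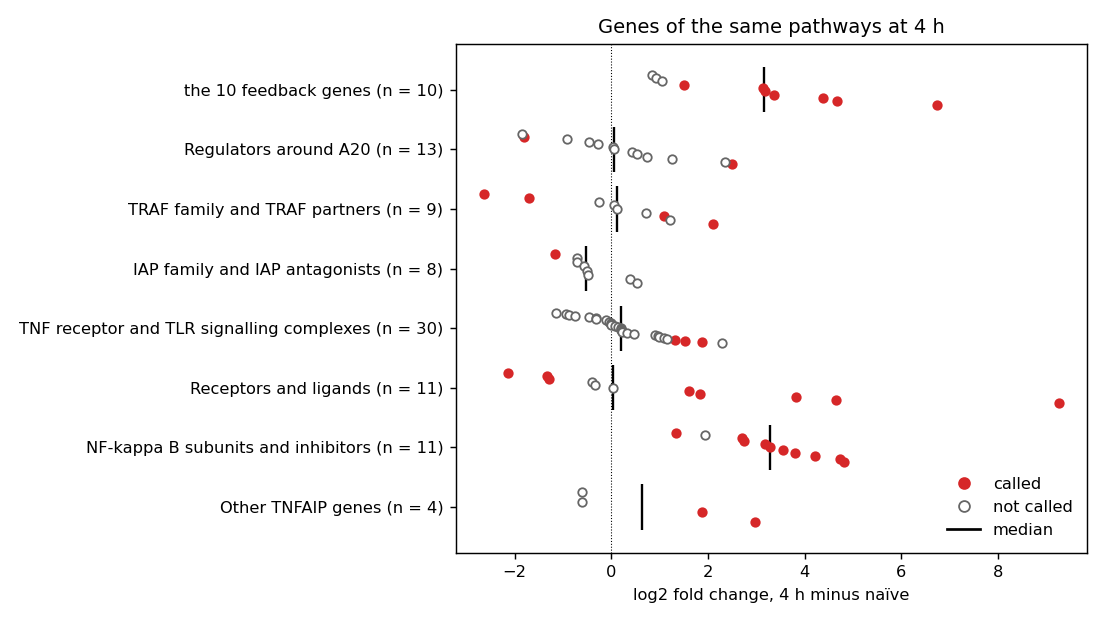
Log2 fold change at 4 h (x axis) of the 10 genes described here, labelled feedback genes, and of the tested genes of 7 pathway lists, 1 point per gene. Red points passed the test and black bars are list medians. The NF-kappa B list lies to the right of 0, with 10 of 11 genes called higher, while the A20 regulator, TRAF, IAP and signalling complex lists have medians between -0.53 and 0.19.

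Of 11 NF-kappa B subunits and inhibitors, 10 were higher at 4 h, 90.9% called against 8.08% of all genes, and none at 18 h. Nfkbia, the inhibitor that is itself made on NF-kappa B activation, had 6.49 to 113 RPKM in naïve retinas and 508 to 2846 at 4 h (4.82, adjusted p = 1.3e-08). Nfkbiz, a nuclear cofactor of the family, rose by 4.73 (adjusted p = 3.0e-08) and Nfkbib, another inhibitor, by 4.21 (adjusted p = 1.5e-05). The gene that was not called was Rela, with 0.0432 to 44.4 RPKM in naïve retinas and 3.42 to 100.9 RPKM at 4 h (1.93, adjusted p = 0.091).

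Receptors and ligands went both ways, with 5 of 11 tested genes higher and 3 lower at 4 h, 72.7% against 8.08% of all genes. Tnf, the ligand whose receptors use these TRAFs and cIAPs, had 0 to 4.29 RPKM in naïve retinas and 291 to 3291 RPKM at 4 h (9.26, adjusted p = 4.6e-13), and it was still higher at 18 h, with 8.98 to 49.5 RPKM (3.62, adjusted p = 2.6e-04). Cd40 rose by 4.64 (adjusted p = 4.2e-09) and Cd14, the LPS co-receptor, by 3.82 (adjusted p = 6.4e-08). The 3 lower genes were Tlr4, the LPS receptor (-2.15), its partner Ly96 (-1.33) and Tnfrsf11a (-1.29), all named after their values were seen. Tnfrsf9, a TRAF1- and TRAF2-binding receptor, was called both at 4 h, at 1.61 (adjusted p = 0.010), and at 18 h, at 1.79 (adjusted p = 0.012), with medians of 3.21 and 3.10 RPKM. It would not have passed the filter without the 4 h retinas, so its call at 4 h was favoured by the filter. Lymphocyte markers summed to at most 0.422 RPKM at 4 h and to at least 10.7 RPKM at 18 h.

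Of 13 regulators around A20, 1 was higher and 1 lower at 4 h, 15.4% against 8.08% of all genes. N4bp1, an endoribonuclease and ubiquitin binder, rose by 2.5 (adjusted p = 1.6e-05) at 4 h. Otud1, a deubiquitinase, fell by 1.81 at 4 h (adjusted p = 0.011) and by 2.39 at 18 h (adjusted p = 0.0031). Of 9 TRAF family and partner genes tested, 2 were higher and 2 lower at 4 h, 44.4% against 8.08% of all genes. Tank, a TRAF-binding adaptor, rose by 2.10 (adjusted p = 0.0013). Traf3, a negative regulator of noncanonical NF-kappa B signalling that was named after its values were seen, had 0.0153 to 2.83 RPKM in naïve retinas and 1.81 to 4.36 RPKM at 4 h, and rose by 1.10 (adjusted p = 0.034). Tifab, a TRAF6 regulator, fell by 2.62 (adjusted p = 1.8e-04). Traf3ip3, a TRAF3-binding protein, fell by 1.70 at 4 h (adjusted p = 7.5e-04) and by 1.41 at 18 h (adjusted p = 0.015). Of 8 IAP family genes and antagonists, 1 was called at 4 h, 12.5% against 8.08% of all genes. This was Naip5, an inflammasome sensor, which was lower, at -1.17 (adjusted p = 0.041).

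Of 30 adaptors, kinases and ligase subunits of the receptor complexes, 3 were higher at 4 h and none lower. These were 10% of the list, near the 8.08% of all genes called in either direction. Irak3, a kinase-like protein that restrains toll-like receptor signalling, rose by 1.88 at 4 h (adjusted p = 0.0079) and by 2.08 at 18 h (adjusted p = 0.0099), when its 5 retinas had 3.28 to 16.3 RPKM against 0 to 4.15 in naïve retinas. Ikbke, an inducible IKK-related kinase, had at most 0.0125 RPKM in naïve retinas and rose by 1.52 at 4 h (adjusted p = 2.5e-04) and by 1.20 at 18 h (adjusted p = 0.011). It would not have passed the filter without the 4 h retinas, so its call at 4 h was favoured by the filter. Cflar, which encodes the caspase-8 inhibitor c-FLIP, rose by 1.31 at 4 h (adjusted p = 5.6e-04). Of 4 other TNFAIP genes tested, 2 were called at 4 h, both higher, 50% against 8.08% of all genes. Tnfaip6 rose by 2.97 (adjusted p = 1.0e-05) and Tnfaip8 by 1.87 (adjusted p = 8.0e-04) at 4 h, and Tnfaip8 was higher by 1.43 at 18 h (adjusted p = 0.027).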

How the data were processed

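The authors trimmed the reads, aligned them with STAR 2.5.3a to mm10, quantified Ensembl transcripts by Partek E/M, an estimate that can split a read among genes, and deposited RPKM values. Per the labels, bcl2fastq 2.20 was also used. The number of alignments per retina comes from the same table. The authors' 2 tables with p-values and fold changes for 4 h and 18 h were not used.

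The test scale was log2(RPKM + 1), for genes that reached 1 RPKM in 5 or more retinas. limma 3.58.1 (R 4.3.3) was fitted to all 28 retinas with the 4 groups, or with the 8 combinations of group and experiment, using a mean-variance trend, two-sided tests and Benjamini-Hochberg adjustment over 13164 genes. A call required a 2-fold change and an adjusted p no larger than 0.05, the study's limits. The fit was tested on simulated data. Alternatives were other pseudocounts, filters, scalings, covariates and sample sets, a replicate block, each retina left out and, chosen after seeing the data, the 4 retinas of fewest genes left out. Named genes were the 10 members, up to 3 called genes per pathway list and time with the largest change, and the 3 genes most correlated with each of 3 members. Rela, Traf3, Tlr4, Ly96 and Tnfrsf11a were added after their values were seen. Members and lists were chosen with earlier results of these data known. Positions are from GENCODE M21 (GRCm38), and figures were drawn with matplotlib 3.10.9.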

Additional observations from a re-analysis of the deposited data

Results flagged for a closer look

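Tnip3 differed between the experiments in its change at 4 h, with a difference (experiment 2 minus experiment 1) of -4.05 on the log2 scale in the test of the difference itself. Each of the 10 genes was checked in each of the 4 groups for a retina standing apart from the others by Dixon's criterion on log2(RPKM + 1), and 4 of 40 such groups had one, where chance gives about 1 in 20. Birc3 in 4 h retina 1 had 89.2 RPKM against 35.8 to 49.5 RPKM in the other 4 h retinas, the retina in which 7 of the 10 genes were highest. Birc2 had 0.450 RPKM in naïve retina 5 against 3.67 to 14.1 RPKM in the other naïve retinas, and 2.48 RPKM in 2-week retina 3 against 8.16 to 14.8 RPKM in the other 2-week retinas. Traf1 had 0.143 RPKM in naïve retina 1 against 0 to 0.0127 RPKM in the other naïve retinas, a difference of a few reads.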

How the results depend on the processing

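Of the 10 genes, 7 or 8 were called at 4 h with 1 retina left out and under the other alternatives tried, except that a pseudocount of 10 left 6 (Traf1 fell below 2-fold) and a filter at 5 RPKM left 5, since it removed Tnip3, Traf1, Traf2 and Traf6 from the test. The eighth gene was Traf6, or Birc2 with quantile normalisation. Rescaling to an equal summed RPKM moved the median change of all genes at 4 h from -0.11 to -0.27 and the calls from 485 higher and 578 lower to 410 and 997 (at 18 h from 374 and 244 to 225 and 467), and the same 7 genes of the 10 stayed higher at 4 h. The depth of single reads limits Traf1 and naïve Tnip3, and the cause of the changes below was not tested.

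At 18 h 1 gene, Traf1, was called with a pseudocount of 0.1, with no fold minimum, without 18 h retina 4 (range of leaving out 1 retina, 0 to 1), and in an alternative added after seeing the data, without the 4 retinas of fewest genes (limit 8000). The difference between experiments at 4 h (1 gene, Tnip3) became 0 with a pseudocount of 0.1, a filter at 5 RPKM (which removed it), the replicate block and only the groups compared, and ranged from 0 to 1 with 1 retina left out. The level difference at 4 h (1 gene) became 0 with the first 3 of these and 2 on untransformed RPKM. Genes lower at 18 h than at 4 h fell from 7 to 4, and those lower at 2 weeks from 7 to 3, in experiment 1 alone. In experiment 2 alone the 18 h group has 1 retina, assumed to vary like the other groups. Calls within experiment 2 ranged from 3 to 6 with 1 retina left out. Pathway genes called at 4 h fell from 30 to 17 with a pseudocount of 10 and to 17 in experiment 1 alone. At 18 h they fell from 7 to 1 with a pseudocount of 10, to 4 with the replicate block, to 3 in experiment 1 alone, to 0 in experiment 2 alone and to 3 on untransformed RPKM, and ranged from 3 to 9 with 1 retina left out.

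Replicate numbers were not shown to pair retinas. Of 34 same-numbered pairs across groups 15 had a correlation of deviations over 0.1 (median 0.035, range -0.33 to 0.70), and 7 of 25 retinas correlated best with their own number. The number expected without pairing was not computed, and some same-numbered retinas came from different experiments, so pairing was not excluded. With the replicate block, 7 of the 10 genes were called at 4 h and 6 between 4 h and 18 h and 0 within experiment 2. It turned the sign of Birc3 at 2 weeks (-0.029) and in the difference between experiments (-0.49), and of Birc2 (-0.012) and Traf2 (-1.70) within experiment 2.

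Other signs that turned belonged to values that were not called. With a pseudocount of 0.1 these were Tnip2 (-0.00767) and Traf6 (0.058) at 18 h and the experiment difference of Traf1 (0.0886), which was 2.87 on untransformed RPKM. Equal summed RPKM turned Tnip2 at 18 h (-0.15) and Birc2 (-0.0588) and Traf2 (-0.0678) within experiment 2, and quantile normalisation turned Traf6 at 18 h (0.049). Experiment 1 alone turned Tnfaip3 at 2 weeks (-0.0843), Traf6 at 18 h (0.024) and Traf6 between 4 h and 2 weeks (0.12). Experiment 2 alone turned Birc3 (0.51) and Tnfaip2 (-0.49) at 18 h, Traf6 at 2 weeks (-0.24), and Traf2 between 4 h and 18 h (0.027) and between 4 h and 2 weeks (0.37). Without the 4 retinas of fewest genes, Tnfaip3 at 2 weeks was -0.14 and Traf6 at 18 h 0.00186. With 1 retina left out, Tnip2 at 18 h ran from -0.35 to 0.78, Traf6 at 18 h from -0.18 to 0.036, Birc3 at 2 weeks from -0.12 to 0.40, Tnfaip3 at 2 weeks from -0.045 to 0.59, the experiment difference of Traf1 from -0.37 to 0.36, Traf6 within experiment 1 from -0.049 to 0.66, and Birc2 and Traf2 within experiment 2 from -0.14 to 0.53 and from -0.036 to 0.47.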
